A study of Saccharomyces cerevisiae with 2 samples.

Results

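The cytosolic Hsp70 and Hsp90 chaperone genes of budding yeast are described here by their RNA levels. The 10 genes were chosen by systematic name, and all 10 had a row among the 6692 genes of both files. They are the Ssa genes SSA1 (YAL005C), SSA2 (YLL024C), SSA3 (YBL075C) and SSA4 (YER103W), the Ssb genes SSB1 (YDL229W) and SSB2 (YNL209W), the Hsp90 genes HSP82 (YPL240C) and HSC82 (YMR186W), the J-domain gene YDJ1 (YNL064C) and the Hsp110 gene SSE1 (YPL106C). RNA was sequenced in 2 libraries, replicates 1 and 2 of 1 group, which the study calls biologically independent. Cells of the strain yJL59a were grown with methionine, washed and depleted of it. The strain is labelled MATa and carries his3-11,15 with the double mutant allele of LEU2, also trp1-1 and ura3-1, and can1-100 beside ade2-1. It also carries reporters driven by the MET3 promoter, with mCherry and a URA3 marker at CDC20 and GFP with KanMX at CWC23.

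Replicate 1 held 34052011 counts and replicate 2 held 35367508 counts, and 6007 of the 6692 genes had a coding length in the R64 annotation. Values are FPKM, that is, counts per kb of coding sequence and per 1000000 counts of the library, as mean ± SD (n = 2). The labels give no heat shock and no group without depletion, so no gene is called induced or repressed, and no test between conditions was possible. The mating type went against its label. The 5 a-specific markers, MFA1, MFA2, STE2, STE6 and BAR1, had a median of mean levels of 8.96 FPKM and the 4 alpha-specific markers, MF(ALPHA)1, MF(ALPHA)2, STE3 and SAG1, one of 602 FPKM. In each library labelled MATa, every one of the 4 lay above every one of the 5.

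Hsp70 proteins bind exposed hydrophobic stretches of unfolded proteins and release them in a cycle driven by ATP. J-domain proteins such as Ydj1 deliver substrates and stimulate ATP hydrolysis, and exchange factors such as Sse1 release ADP and reset the cycle. Hsp90 receives partly folded clients from Hsp70, among them kinases and transcription factors. In budding yeast the Ssa proteins serve the whole cytosol and the Ssb proteins sit on the ribosome and meet nascent chains. SSA2 and HSC82 are known as the constitutive paralogs and SSA3, SSA4 and HSP82 as the heat-inducible ones, with SSA1 transcribed at normal temperature and raised further by heat. The regulators known for this are the heat shock factor Hsf1 and the general stress factors Msn2 and Msn4.

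The paralogs are close copies, which decides how well reads can be assigned to them. The last 60 bases of the 8 paired genes, from R64 and written 5′ to 3′ with the stop codon at the end, show how close. Capitals mark bases that differ from the partner, or face a gap in it, in the alignment of the whole coding sequences.
SSA1: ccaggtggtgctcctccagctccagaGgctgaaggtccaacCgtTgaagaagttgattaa
SSA2: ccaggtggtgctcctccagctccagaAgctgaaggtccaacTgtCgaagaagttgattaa
SSA3: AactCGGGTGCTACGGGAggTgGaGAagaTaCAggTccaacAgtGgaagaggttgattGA
SSA4: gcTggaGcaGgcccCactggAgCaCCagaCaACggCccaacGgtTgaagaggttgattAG
SSB1: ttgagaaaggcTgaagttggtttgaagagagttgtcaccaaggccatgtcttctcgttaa
SSB2: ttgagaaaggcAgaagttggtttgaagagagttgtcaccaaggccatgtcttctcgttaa
HSP82: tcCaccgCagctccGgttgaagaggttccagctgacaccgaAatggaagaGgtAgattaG
HSC82: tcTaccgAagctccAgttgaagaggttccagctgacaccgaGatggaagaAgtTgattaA
The stretches lie at chrI:139503-139562 (minus strand), chrXII:95566-95625 (minus), chrII:84499-84558 (minus), chrV:366458-366517 (plus), chrIV:45847-45906 (plus), chrXIV:253841-253900 (plus), chrXVI:96496-96555 (minus) and chrXIII:634413-634472 (plus), in the order above. Each is the 3′ end of the only coding block of its gene, since none of the 10 genes has an intron in its coding sequence. The Ssa and Hsp90 genes end in the codons of the tail that docks co-chaperones such as Sti1, a feature that the Ssb genes lack.

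SSB1 and SSB2 were the closest pair. They shared 97.4% of 1842 aligned bases, with 48 differences and an identical run of 563 bases. SSA1 and SSA2 shared 96.8% of 1920 aligned bases, with 61 differences and an identical run of 383 bases. HSP82 and HSC82 shared 92.4%, with 160 differences and no identical run above 113 bases, and SSA3 and SSA4 shared 77.6% with no identical run above 17 bases. SSA3 and SSA4 were about as far from SSA1, at 75.2% each. Reads were paired and 50 bases long per the methods. Each coding sequence was cut into 50-base words, and the share of words found at 1 place only in the genome was counted. That share was 42.1% for SSA1, 41.8% for SSA2, 56.8% for each Ssb gene and 93.6% for each Hsp90 gene. It was 100% for SSA3, SSA4, YDJ1 and SSE1, whose reads have no exact copy elsewhere in the reference. Single 50-base words take no account of the pairing of reads. With 150-base words the share was 64.4% for SSA1, 64.3% for SSA2, 74.5% for each Ssb gene and 100% for each Hsp90 gene.

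Genes that had no word of their own held few counts. There were 94 such genes, with a median of 0 counts in replicate 1 and 1 in replicate 2, with at most 569 and 517, and 40 of them had 0 counts in both. The 175 genes with up to 50% unique words, among them SSA1 and SSA2, had medians of 83 and 96 counts. The 228 genes with over 50% but not all words unique, among them both Ssb and both Hsp90 genes, had medians of 5135 and 5761 counts, above the 2187 and 2182 of the 5510 genes with unique words throughout. Counts thus did not rise evenly with the share of unique words. How reads with several exact places were counted is not given in the sources used here, and many repeated genes are silent, which was not separated. If such reads were left out, FPKM over the full coding length is too low for SSA1, SSA2, SSB1 and SSB2, which was not tested.

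Open reading frames on the other strand touch the same genes. YAL004W, which has no coordinates in the annotation used here, was located by its name, its strand and its place beside YAL005C as a frame of at least 100 codons at chrI:140760-141407, wholly inside SSA1 (chrI:139503-141431, minus strand), where it covers 648 bp or 33.6% of the coding sequence. It had 0 counts in both libraries. YDL228C was located in the same way at chrIV:45277-45918, where it covers 630 bp or 34.2% of SSB1 (chrIV:44065-45906, plus strand), and it had 10 and 9 counts. SSA2 and SSB2 hold frames of this kind too, of 648 bp and 369 bp, but the files have no row for them. Reads that fall on 2 listed genes can be dropped in counting. Since no strand setting is given, a gene and its antisense partner cannot be told apart.

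**Figure D1:**
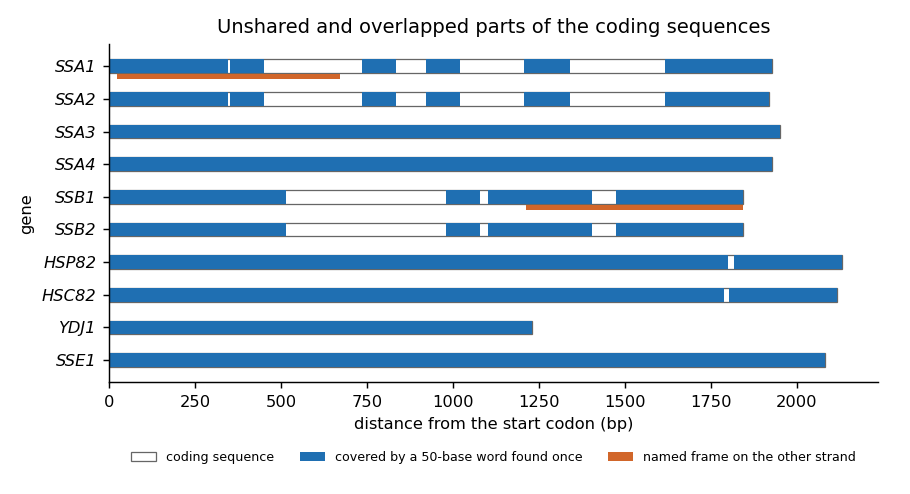
Coding sequences of the 10 genes drawn from the start codon (x axis, bp). Blue marks bases covered by a 50-base word found at 1 place in the genome, and the orange bar under SSA1 and SSB1 marks the frame on the other strand that has its own row in the files. The Ssa1/Ssa2 and Ssb1/Ssb2 pairs have wide white gaps, and SSA3, SSA4, YDJ1 and SSE1 have none.

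The 10 genes together took 0.653% of counts in replicate 1 and 0.662% in replicate 2, and their summed level was 3432 ± 22.4 FPKM. The median over the 10 genes was 306 ± 70.7 FPKM, against 45.9 ± 1.49 FPKM for all 6007 genes, and 8 of 10 exceeded it. SSA3 and SSA4 were the exceptions. In such bulk RNA, fewer cells transcribing a gene and less RNA per cell cannot be told apart.

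Among the ribosome-bound Hsp70 genes, SSB2 (chrXIV:252059-253900, plus strand) was the highest of all 10. It stood at 1013 FPKM in replicate 1 and 901 FPKM in replicate 2, or 957 ± 78.9 FPKM, rank 225 of 6007 genes. SSB1 stood at 514 and 458 FPKM, or 486 ± 39.3 FPKM, rank 382. Both libraries thus put SSB2 above SSB1, with no overlap of their ranges. The ratio of SSB1 to SSB2 was 0.507 in replicate 1 and 0.509 in replicate 2, so the replicates gave nearly the same value. SSB1 gave 33.7% of the counts of the pair in both libraries (95% Wilson intervals 33.4% to 34.0% in each).

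That ratio depended on the length used. With the whole count of SSB1 divided by its bases outside YDL228C, the ratio was 0.772 ± 0.00113. With 50-base words that are both unique and outside that frame as the length, it was 0.963 ± 0.00141. Counts were not restricted to those bases, so both values assume that the left-out bases gave no counts, which was not tested. With unique words alone the ratio stayed at 0.508, because both genes have 1018 unique words of 1793. Leaving out the bases under YDL228C shortens SSB1 only, so it can only raise this ratio. The higher values are thus no check on the gap between the Ssb genes.

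Among the general cytosolic Hsp70 genes, SSA2 (chrXII:95566-97485, minus strand) stood at 289.6 FPKM in replicate 1 and 357 FPKM in replicate 2, or 323 ± 48.0 FPKM. SSA1, the paralog known to be both constitutive and heat-responsive, stood at 222 and 354 FPKM, or 288 ± 93.4 FPKM. Their ranges overlapped, so the levels of SSA1 and SSA2 did not differ beyond the spread between replicates. The ratio of SSA2 to SSA1 was 1.30 in replicate 1 and 1.01 in replicate 2. With the whole count of SSA1 divided by its bases outside YAL004W, the ratio turned to 0.768 ± 0.138. With unique words outside that frame as the length, it was 0.654 ± 0.118. Here too the counts were not restricted to those bases, and the frame shortens SSA1 only, so leaving it out can only lower this ratio. These data do not settle which of the pair was higher.

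The heat-inducible Hsp70 genes were the lowest of the 10. SSA4 (chrV:364589-366517, plus strand) had 2018 and 3410 counts, which is 30.7 FPKM in replicate 1 and 50.0 FPKM in replicate 2, or 40.4 ± 13.6 FPKM. SSA3 (chrII:84499-86448, minus strand) had 1098 and 1303 counts, which is 16.5 and 18.9 FPKM, or 17.7 ± 1.67 FPKM at rank 4696 of 6007. SSA4 was the higher of the pair in both libraries, by 1.86 times in replicate 1 and 2.65 times in replicate 2. SSA3 was under the median gene in both libraries, and SSA4 lay below it in replicate 1 and above it in replicate 2. Both were far above the floor of 3 counts, so they were transcribed in these cells at a low level.

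SSA1 and SSA2 together exceeded SSA3 and SSA4 together by 10.8 times in replicate 1 and 10.3 times in replicate 2. SSA3 and SSA4 made up 8.45% and 8.82% of the summed Ssa level. With unique 50-base words as the length the excess was 25.2 ± 0.843 times, since only SSA1 and SSA2 share sequence at that length, and with the frame also removed it was 34.3 ± 0.264 times. The constitutive pair was higher under each of the 7 length scalings, which is no check on the gap. Shortening by unique words or by the frame acts on SSA1 and SSA2 only, so it can only raise the ratio. The other scalings left it at 10.5 to 10.6 times.

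The Hsp90 genes showed the widest gap within a pair of paralogs. HSC82 (chrXIII:632355-634472, plus strand) stood at 534 FPKM in replicate 1 and 547 FPKM in replicate 2, or 540.5 ± 9.73 FPKM. HSP82 (chrXVI:96496-98625, minus strand) had 3652 and 6554 counts, which is 50.4 and 87.0 FPKM, or 68.7 ± 25.9 FPKM. HSC82 was thus higher by 10.6 times in replicate 1 and 6.29 times in replicate 2. HSP82 gave 8.67% of the counts of the pair in replicate 1 (95% Wilson interval 8.40% to 8.94%) and 13.8% in replicate 2 (13.5% to 14.1%), so its share differed between these libraries beyond counting error. These intervals cover counting error only. The pair ratio moved little between scalings, and lay between 8.40 and 8.45 under all 7. Both genes have 93.6% unique 50-base words, similar lengths and no named frame, so these scalings could hardly move it.

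**Figure D2:**
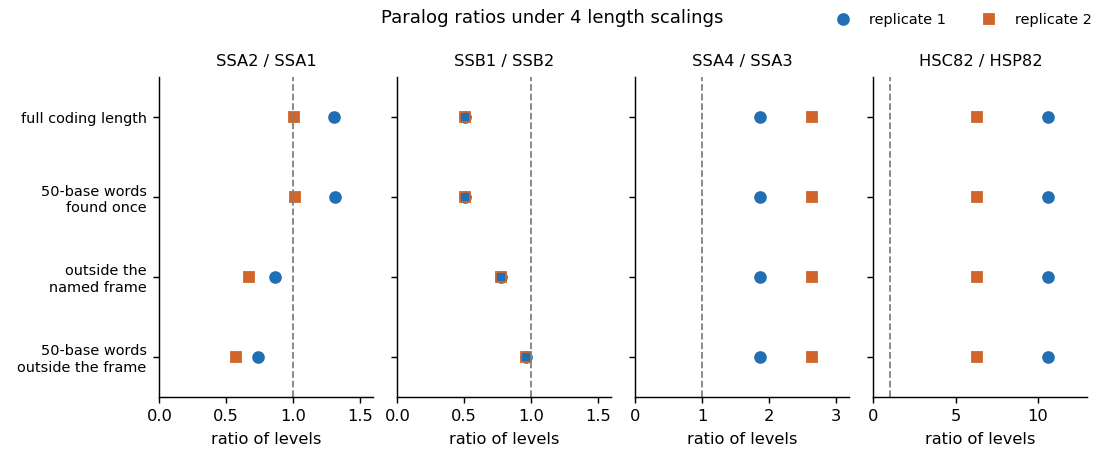
Ratio of levels within the 4 paralog pairs (x axis, linear, 1 dashed) under 4 ways of scaling counts by length (rows), with replicate 1 as blue circles and replicate 2 as orange squares. SSA4 over SSA3 and HSC82 over HSP82 stay in place, since these scalings hardly change their relative lengths. SSA2 over SSA1 crosses 1 and SSB1 over SSB2 moves from 0.508 to 0.963, since the named frames shorten SSA1 and SSB1 only.

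The partner genes of Hsp70 stood at different levels. By FPKM over the full coding length SSE1 was above every Hsp70 gene except SSB2, though its lower library at 515 FPKM was barely above the higher SSB1 library at 514 FPKM, and YDJ1 was below both Ssb genes, SSA1 and SSA2. SSE1 (chrXVI:350194-352275, minus strand), the Hsp110 exchange factor, stood at 571 and 515 FPKM, or 543 ± 40.1 FPKM. YDJ1 (chrXIV:505868-507097, minus strand), the farnesylated J-domain protein, stood at 175 and 159 FPKM, or 167 ± 11.6 FPKM. The ratio of SSE1 to YDJ1 was 3.27 and 3.24, which is nearly equal in both libraries. The 4 Ssa genes together were at 3.19 times the level of YDJ1 in replicate 1 and 4.92 times in replicate 2. The summed Ssb level was 2.73 times the summed Ssa level in replicate 1 and 1.74 times in replicate 2, and the summed Ssa level was 0.957 and 1.23 times the summed Hsp90 level.

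In order of mean level the genes ran SSB2, SSE1, HSC82, SSB1, SSA2, SSA1, YDJ1, HSP82, SSA4 and SSA3. SSE1 and HSC82 had overlapping ranges, as had SSA2 and SSA1, and neither pair differed beyond its spread. HSP82 and SSA4 were barely apart, since the lower HSP82 library stood at 50.4 FPKM and the higher SSA4 library at 50.0 FPKM. Within each library HSP82 was above SSA4. The other 6 neighbours in that order had ranges apart. YDJ1, HSP82, SSA4 and SSA3 kept the last 4 places under each of the 8 alternative scalings, while the order of the upper 6 changed with the length used.

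**Figure D3:**
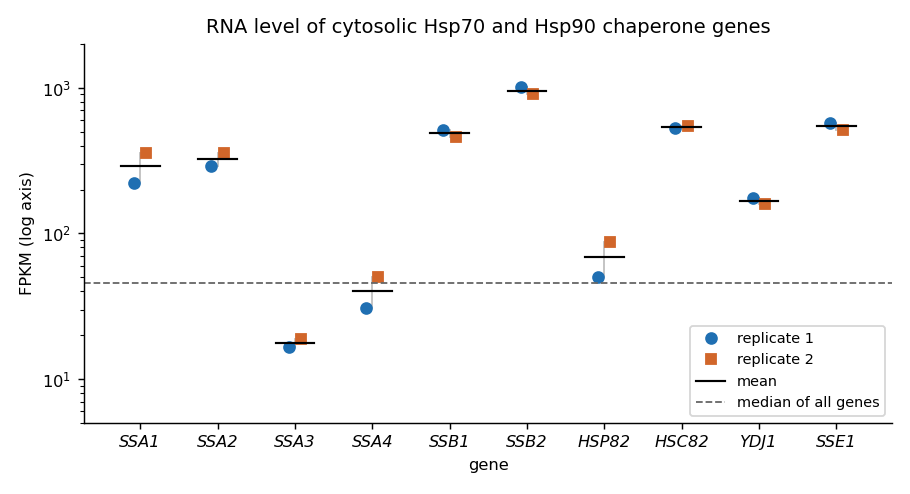
RNA level of each gene (FPKM, log axis) in replicate 1 (blue circles) and replicate 2 (orange squares), with the mean as a black bar and the median of all genes, 45.9 FPKM, dashed. SSA3 and SSA4 lie near or below the dashed line, and SSA1, SSA4 and HSP82 have the widest gaps between libraries.

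The replicates differed for part of the genes only. HSP82 was 1.73 times higher in replicate 2 (95% exact interval 1.66 to 1.80, counting error only), SSA4 1.63 times (1.54 to 1.72) and SSA1 1.59 times (1.56 to 1.63). By a rule of over 25% higher in 1 library than in the other, on log2(FPKM + 1), these 3 of 10 genes were higher in replicate 2 and 0 of 10 were lower, where 4.22% of 5759 genes of at least 1 FPKM were higher and 7.5% were lower. Only 0.972% of the 5759 genes had a larger difference than HSP82, 1.81% than SSA4 and 1.96% than SSA1. SSA2 lay just under the rule at 1.23 times, and with edgeR or DESeq2 scaling it passed, for 4 of 10. With 1 library on each side the rule describes these libraries and is no test.

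The other genes were close between libraries. Relative to replicate 1, SSA3 was at 1.14 times in replicate 2 (1.05 to 1.24) and HSC82 at 1.03 times (1.01 to 1.04). SSB1, SSB2, SSE1 and YDJ1 were at 0.892, 0.890, 0.901 and 0.906 times. Summed by class, the Ssa level was 1.40 times higher in replicate 2, the Hsp90 level 1.09 times higher and the Ssb level 0.890 times as high. Within pairs HSP82, SSA4 and SSA1 passed the rule of 25% and their partners HSC82, SSA3 and SSA2 did not, except that SSA2 passed with edgeR or DESeq2 scaling. Whether the difference itself differed within a pair was not tested.

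Stress genes moved in the same direction. Of 14 genes known to be controlled by Msn2 and Msn4, 13 were over 25% higher in replicate 2 and 0 were lower. Over all 5759 tested genes 4.22% were higher and 7.5% were lower. The 14 genes had a median difference of 0.64 on the log2 scale, against -0.03 over all 5759. Their median level was 278 FPKM in replicate 1 and 474 FPKM in replicate 2. HSP12, a small membrane-associated stress protein, stood at 1237 and 2236 FPKM, the hexokinase HXK1 at 1170.4 and 1870 FPKM, and the trehalose synthase TPS1 at 581 and 737 FPKM. The lowest of the list were HSP26 at 37.5 and 69.9 FPKM and the aldehyde dehydrogenase ALD3 at 15.9 and 29.5 FPKM. This list was known to differ between the libraries from earlier results of these data. The part of these stress genes in the difference of HSP82, SSA4 and SSA1 was not tested.

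**Figure D4:**
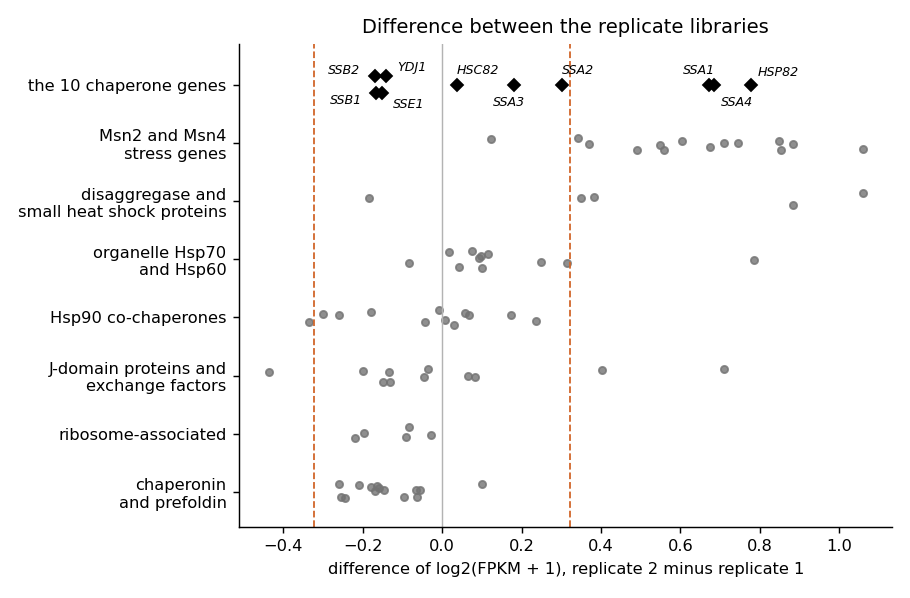
Difference of log2(FPKM + 1), replicate 2 minus replicate 1 (x axis), for the 10 chaperone genes (black diamonds) and 7 lists of other genes (grey circles, 1 per gene, spread vertically for view). Dashed lines mark 25% higher in 1 library than in the other. HSP82, SSA4 and SSA1 lie beyond the right line with 13 of 14 Msn2 and Msn4 stress genes, and the other 7 chaperone genes lie between the lines. Of all tested genes 4.22% were beyond the right line and 7.5% beyond the left.

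The 500 bp before each start codon were searched on both strands for the heat shock element (GAANNTTCNNGAA or TTCNNGAANNTTC), the stress response element that Msn2 and Msn4 bind (AGGGG or CCCCT) and a TATA box (TATAAA or TTTATA). Stress response elements were found before 3 of the 10 genes, SSA1 with 2 matches, SSA4 with 3 and HSP82 with 2. Over 5986 genes, 34.1% held at least 1 match, so 3 of 10 was near the share of all genes. The same 3 genes passed the rule of 25% with library totals, while SSA2, which also passed with edgeR or DESeq2 scaling, had 0 matches. The part of this element in the difference between libraries was not tested. Their windows in R64, written 5′ to 3′ on the strand of the gene with the matches in capitals, are shown because these genes differed between libraries.
SSA1, 226 to 141 bp upstream: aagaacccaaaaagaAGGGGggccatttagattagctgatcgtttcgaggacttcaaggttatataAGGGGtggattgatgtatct
SSA4, 482 to 413 bp upstream: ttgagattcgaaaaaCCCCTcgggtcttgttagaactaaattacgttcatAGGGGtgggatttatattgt
SSA4, 194 to 160 bp upstream: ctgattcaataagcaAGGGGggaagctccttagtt
HSP82, 411 to 377 bp upstream: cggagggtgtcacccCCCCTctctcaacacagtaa
HSP82, 164 to 130 bp upstream: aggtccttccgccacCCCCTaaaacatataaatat
These windows are chrI:141572-141657 (minus strand), chrV:364107-364176 and chrV:364395-364429 (plus), and chrXVI:99002-99036 and chrXVI:98755-98789 (minus).

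Tested genes were also counted by their number of matches. Of 3773 tested genes with no match 2.60% were over 25% higher in replicate 2 and 8.45% were lower. Of 1509 genes with 1 match 5.30% were higher and 6.56% lower, and of 477 genes with 2 or more 13.6% were higher and 2.94% lower. SSA1, SSA4 and HSP82 belong to the last group and the other 7 genes to the first. The motif was set against the difference after both were seen, and a match is not a bound site.

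Heat shock elements in the strict form with 3 units were found before SSA1, SSA2 and SSE1, and before 1.49% of the 5986 genes. The windows are shown because Hsf1 is known to bind this element, with the matches in capitals.
SSA1, 379 to 234 bp upstream: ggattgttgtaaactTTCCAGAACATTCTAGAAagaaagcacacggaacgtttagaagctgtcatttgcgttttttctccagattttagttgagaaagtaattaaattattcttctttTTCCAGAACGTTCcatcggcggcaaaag
SSA2, 248 to 206 bp upstream: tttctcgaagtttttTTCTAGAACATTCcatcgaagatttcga
SSE1, 201 to 159 bp upstream: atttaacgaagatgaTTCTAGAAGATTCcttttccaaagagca
They lie at chrI:141665-141810, chrXII:97691-97733 and chrXVI:352434-352476, all on the minus strand. SSA1 has 3 matches, of which a pair overlaps to form the longer run, and SSA2 and SSE1 have 1 each. SSA1 alone of the 10 held both kinds of element. In replicate 2 SSA1 was at 1.59 times, SSA2 at 1.23 times and SSE1 at 0.901 times the level in replicate 1. Of 86 tested genes with a strict heat shock element, 12.8% were over 25% higher in replicate 2 and 5.81% lower, where 4.22% and 7.5% of all 5759 were. The strict letters were not in the windows of SSA3, SSA4, HSP82, HSC82, YDJ1, SSB1 and SSB2, which says nothing of other forms of the element. The TATA letters were found before 8 of 10 genes and before 60.5% of all 5986.

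**Figure D5:**
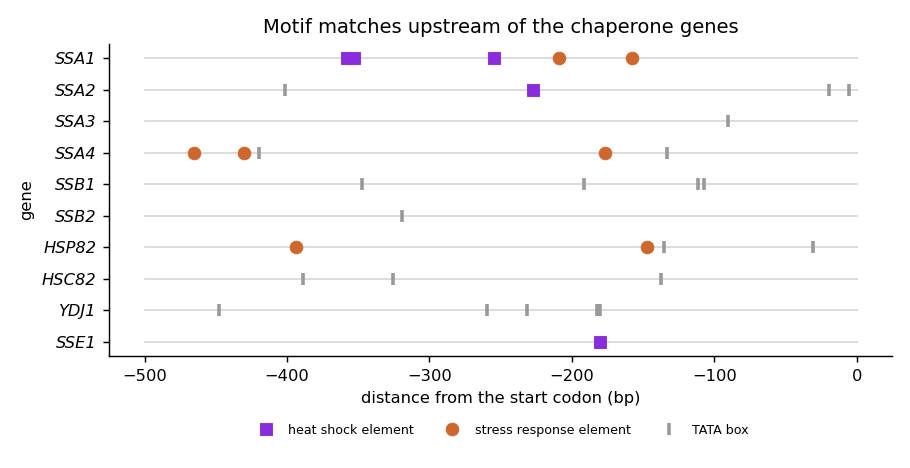
Matches to the heat shock element (purple squares), the stress response element (orange circles) and the TATA letters (grey ticks) in the 500 bp before the start codon (x axis, bp) of the 10 genes. The orange circles are on SSA1, SSA4 and HSP82 only.

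The coding sequences also separated constitutive from inducible Hsp70 genes. The codon adaptation index, which is 1 for a gene made only of the codons most used by ribosomal protein genes, was 0.853 for SSB1, 0.833 for SSA2, 0.811 for SSB2 and 0.757 for SSA1. It was 0.243 for SSA3 and 0.252 for SSA4, which is rank 1432 and rank 1275 of 6007 genes, where the median was 0.198. HSC82 and HSP82 had 0.649 and 0.588, SSE1 0.596 and YDJ1 0.459, so HSP82 was close to its constitutive partner by codon use but not by RNA level. Across the 6007 genes, which are not independent, the index and mean FPKM had a Spearman rho of 0.405, given as a description. GC content ran from 38.5% in HSC82 to 44.1% in SSA1.

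The other chaperones of the cytosol were set beside these genes by lists. The Hsp90 co-chaperones had a median of 131 FPKM in replicate 1 and 147 FPKM in replicate 2, and 8 of 12 exceeded the median gene. SBA1, the p23 homolog, was highest at 751 ± 2.93 FPKM, above both Hsp90 genes, followed by HCH1 at 170.2 ± 2.63 FPKM, which activates the Hsp90 ATPase, and the prolyl isomerase CPR6 at 159 ± 5.27 FPKM. PIH1 at 32.9 ± 2.97 FPKM and CPR7 at 32.7 ± 4.27 FPKM were lowest. By the rule of 25%, 0 of 12 were higher and 1 of 12 was lower in replicate 2, which is near the 4.22% and 7.5% over all tested genes.

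The other J-domain proteins and exchange factors of Hsp70 had medians of 68.8 and 75.0 FPKM, and 7 of 11 exceeded the median gene. CAJ1 stood at 180 ± 11.8 FPKM, SIS1, the essential class B J-domain protein, at 124 ± 24.6 FPKM and the exchange factor FES1 at 99.0 ± 2.28 FPKM. By mean level YDJ1 lay between CAJ1 and SIS1. JJJ1, which acts in ribosome assembly, at 10.9 ± 0.867 FPKM and JJJ3 at 4.79 ± 1.23 FPKM were lowest. In this list 2 of 11 were over 25% higher in replicate 2 and 1 was lower, against 4.22% and 7.5% of all tested genes. The higher genes were SIS1 at 107 and 142 FPKM and SSE2, the stress-inducible paralog of SSE1, at 63.9 and 105 FPKM. SSE2 is also in the list of Msn2 and Msn4 stress genes, and SIS1 is not.

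Other ribosome-associated chaperones, among them partners of Ssb, had medians of 568 and 488 FPKM, where 4 of 5 exceeded the median gene. EGD2 and EGD1, subunits of the nascent polypeptide-associated complex, stood at 1577 ± 70.4 and 1190 ± 48.3 FPKM, ZUO1, the J-domain partner of Ssb, at 528 ± 56.9 FPKM, SSZ1 at 270.2 ± 26.1 FPKM and BTT1 at 32.2 ± 0.455 FPKM. None of these 5 passed the rule in either direction, which is near the background, since 11.7% of the 5759 genes passed it.

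The disaggregase and small heat shock proteins were the chaperone list that differed most between libraries. Of 5 genes 4 were over 25% higher in replicate 2 and 0 lower, where 4.22% and 7.5% of all tested genes were. The list medians were 48.9 and 69.9 FPKM. HSP104 and HSP26 are also in the list of Msn2 and Msn4 stress genes, so the lists are not separate. HSP42 stood at 358 and 467 FPKM, HSP104, which pulls proteins out of aggregates with Ssa and Ydj1, at 223 and 466 FPKM and HSP26 as given above. CUR1 at 45.9 ± 4.24 FPKM and BTN2 at 11.6 ± 2.15 FPKM were lowest, and CUR1 was the gene that was not higher. Of the stress regulators themselves 0 of 3 passed the rule, against 11.7% of all tested genes. HSF1 stood at 44.9 ± 0.771 FPKM, MSN2 at 41.9 ± 3.13 FPKM and MSN4 at 166 ± 18.6 FPKM. MSN4 was higher in replicate 2, at 153 and 179 FPKM, and HSF1 and MSN2 were slightly lower.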

How the data were processed

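RNA-seq libraries of 2 replicates in 1 group were analysed. The deposited values are whole-number counts per gene that the authors name FPKM. Per the methods, paired reads of 50 bp were aligned to sacCer3, the R64 assembly, and counted, and the processing notes name featureCounts 2.0.3. For annotation, strand and multi-mapping, settings were not given in the sources used here. Of 6692 genes, 685 without a coding sequence in the annotation held 0.281% and 0.292% of counts and were kept in library totals only. FPKM was computed from merged coding length with Python 3.11.15 and numpy 2.4.6. Alternative library scales came from DESeq2 1.42.0 and from TMM in edgeR 4.0.16, under R 4.3.3. Exact 50-base and 150-base words were counted on both strands, blastn 2.17.0 marked matches of at least 50 bp and 98% identity, and Biopython 1.88 aligned coding sequences. Intervals use SciPy 1.17.1 at 95%. The code was tested on simulated data.

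Members and lists were chosen with earlier results of these data known. All 10 members are named, and of each list the 3 highest and 2 lowest genes by mean FPKM; SSE2, and HSP104 and HSP26 as stress proteins, are named also for their difference. No p-value is given, since 1 group of 2 libraries allows no test. Whether duplicate reads were removed is not stated for RNA-seq.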

Additional observations from a re-analysis of the deposited data

Results flagged for a closer look

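YDL228C, a row outside the annotation used here whose reading frame lies across the 3′ end of SSB1 on the other strand, had 10 counts in replicate 1 and 9 counts in replicate 2, above the limit of 3 counts set for no signal. The frame ends at chrIV:45918, past the end of SSB1 at chrIV:45906. With no strand setting given, reads of the SSB1 end cannot be told apart from reads of YDL228C. No level is given for YDL228C, but its counts are in the library totals and its frame sets the shortened lengths of SSB1.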

How the results depend on the processing

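Scaling by bases outside the overlapping frame and by unique 50-base words outside it, both chosen after seeing the data, turned the SSA2 to SSA1 ratio from 1.16 to 0.768 and 0.654. The same settings moved the SSB1 to SSB2 ratio from 0.508 to 0.772 and 0.963, and the ratio of SSA1 plus SSA2 to SSA3 plus SSA4 from 10.6 to 13.1 and 34.3. That last ratio was 25.2 with unique 50-base words and 16.4 with 150-base words. The frames shorten SSA1 and SSB1 only, so leaving them out could only lower the SSA2 to SSA1 ratio and raise the other ratios given here. The median level of the 10 genes, 306 FPKM, was 560.4 with unique 50-base words, 475 with 150-base words, 379 outside the frame, 560.4 with unique words outside it, and 588 CPM without division by length. The shifts in FPKM follow from the smaller lengths alone, and the value in CPM is in another unit. The blastn rule marked no base of the 10 genes, since the full-length paralog matches lie under 98% identity, so it tests nothing here. Of the other alternatives, 19 left a ratio or the median level within the spread between replicates, 9 of them with no change in value. Leaving out 1 of 2 replicates only gives the value of the other library, so it tests nothing. The number of genes past the rule of 25% went from 3 to 4 with edgeR or DESeq2 scaling, and was 3 with a pseudocount of 0.1 or no filter. No paired analysis was possible because there is only 1 group. Depth limited none of the 10 levels, since the smallest count was 1098.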

Other observations

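The listed chaperones of other compartments had mean levels within the range of the cytosolic genes above, except ECM10, which lay below SSA3. The organelle Hsp70 and Hsp60 list had medians of 162 FPKM in replicate 1 and 164 FPKM in replicate 2, and 9 of 11 genes exceeded the median gene. KAR2, the Hsp70 of the endoplasmic reticulum, stood at 814 ± 125 FPKM, under SSB2 but over the other Hsp70 genes named here by FPKM over the full coding length. The mitochondrial co-chaperonin HSP10 stood at 597 ± 29.1 FPKM and the mitochondrial Hsp70 SSC1 at 329 ± 12.1 FPKM, and SSQ1 at 36.8 ± 0.811 FPKM and ECM10 at 9.45 ± 0.505 FPKM were lowest. HSP78, the mitochondrial relative of HSP104, was the 1 gene of this list over 25% higher in replicate 2, at 63.9 and 111 FPKM, where 4.22% of all tested genes were.

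The cytosolic chaperonin and prefoldin, which fold actin and tubulin, had medians of 139 and 118 FPKM, and all 14 exceeded the median gene. YKE2 stood at 195 ± 6.22 FPKM, CCT4 at 178 ± 8.42 FPKM and CCT7 at 160.4 ± 4.93 FPKM, and GIM5 at 71.7 ± 1.96 FPKM and PAC10 at 52.1 ± 6.76 FPKM were lowest. None of the 14 passed that rule in either direction, where 11.7% of all tested genes did.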
